A study of Mus musculus with 6 samples.

Results

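The Gimap genes encode the GTPases of the immunity-associated protein family. In the mouse they sit side by side on chromosome 6. The family has 8 members here, Gimap8, Gimap9, Gimap4, Gimap6, Gimap7, Gimap1, Gimap5 and Gimap3 in their order along the chromosome. They were taken by gene name from the 47643 reference gene identifiers of the deposited tables, with their abundance (FPKM, a fragment count corrected for transcript length and library depth) and their coverage (the mean number of reads over each base of the gene). The cluster was singled out with the agonist and vehicle values of these same libraries already known. The differences between the groups are therefore a description of the members, given without p-values.

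The cells were natural regulatory T cells (nTregs), suppressive CD4 T cells defined by Foxp3, from spleens of C57BL/6 mice. Both groups had the genotype Foxp3-DTR/EGFP, whose Foxp3-expressing cells also make the diphtheria toxin receptor and green fluorescent protein (GFP). The 3 agonist libraries come from cells given an EP4 agonist at 100 nM for 6 h, EP4 being among the receptors of prostaglandin E2. The 3 vehicle libraries come from cells given DMSO. All cells of both groups had first been activated for 2 days with antibodies to CD3 and CD28 and with IL-2, and were sorted on GFP after treatment. Age is not given in the sources used here, nor is whether the replicates are separate mice, cultures or aliquots, so each spread and p-value covers these libraries only and may be technical. From the ratio of coverage to FPKM that many genes of a library share, the libraries rest on an estimated 4.32 to 4.98 gigabases of aligned sequence with the agonist and 4.49 to 5.65 gigabases with vehicle.

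GIMAP proteins bind guanine nucleotides through a domain shared by the family, and several are anchored in the membranes of lysosomes, the Golgi apparatus or the endoplasmic reticulum. They are known chiefly from lymphocytes, where they govern survival. Loss of Gimap5 in mice and rats, or of Gimap1 in mouse lymphocytes, leaves few peripheral T cells. Transcripts of many family members are known to be high in resting T cells and lower after activation through the antigen receptor.

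The sorted cells carried the markers of their label. The 9 markers of T cells and Tregs summed to 2560 to 2742 FPKM with the agonist and 2399 to 2657 FPKM with vehicle. B cells and endothelial cells also express Gimap genes. The 5 B cell markers summed to 3.69 to 6.20 FPKM with the agonist and 5.64 to 5.93 FPKM with vehicle, most of it Cd79b. Cd79b was lower with the agonist in each pair, without overlap, as were 12.1% of all tested genes. It did not pass (limma, adjusted p = 0.336, and 0.160 with the block). Cd79a was higher with the agonist in each pair. What part B cells had in the Gimap values was not tested. The 4 endothelial markers summed to 15.7 to 19.0 FPKM with the agonist and 14.3 to 18.1 FPKM with vehicle. Nearly all of that was Pecam1, which T cells can express, and Cdh5, Kdr and Tek stayed below 1 FPKM in every library. CD8 T cells express Gimap genes too. Their 2 markers summed to 4.53 to 6.40 FPKM with the agonist and 3.89 to 5.43 FPKM with vehicle, most of it Cd8b1, which was higher with the agonist in each pair and did not pass (limma, adjusted p = 0.813, and 0.326 with the block). What part CD8 T cells had in the Gimap values was not tested. Markers of NK, myeloid and neutrophil cells were below 1 FPKM in every library. Of the erythroid genes, Hbb-bs stayed below 1 FPKM in every library. Hba-a1, a haemoglobin gene, had 0.601, 2.19 and 2.55 FPKM in agonist replicates 1, 2 and 3, against 1.45, 3.36 and 5.67 FPKM in vehicle replicates 1, 2 and 3. It was lower with the agonist in each pair and passed with the block (limma, adjusted p = 0.528, and 0.0368 with the block), and its part in the Gimap values was not tested. In bulk RNA, a change in the share of cells of a type and a change in RNA per cell cannot be told apart.

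Promoters of 4 members are printed to show the sequence at the starts of the members with the extreme differences and of both minus strand genes. Gimap7 had the greatest and Gimap1 the smallest log2 fold change of the family. Gimap6 and Gimap3 are the members on the minus strand. Each line gives the 250 bases before the transcription start from RefSeq (GRCm38.p6, the build of mm10), 5′ to 3′ on the strand of the gene. Capitals mark matches to the motifs named below, as written or as their reverse complement.

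Gimap7, chr6:48718371-48718620, plus strand: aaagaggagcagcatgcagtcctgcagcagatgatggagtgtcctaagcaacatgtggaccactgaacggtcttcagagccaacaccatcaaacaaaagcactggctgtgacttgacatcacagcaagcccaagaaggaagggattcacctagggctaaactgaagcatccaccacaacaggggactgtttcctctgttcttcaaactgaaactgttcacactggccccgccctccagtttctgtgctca

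Gimap6, chr6:48708245-48708494, minus strand: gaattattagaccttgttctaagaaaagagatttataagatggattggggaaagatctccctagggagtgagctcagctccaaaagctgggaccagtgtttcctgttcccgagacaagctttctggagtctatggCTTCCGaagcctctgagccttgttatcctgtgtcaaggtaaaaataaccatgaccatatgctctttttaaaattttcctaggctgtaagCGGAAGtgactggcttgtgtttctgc

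Gimap3, chr6:48770852-48771101, minus strand: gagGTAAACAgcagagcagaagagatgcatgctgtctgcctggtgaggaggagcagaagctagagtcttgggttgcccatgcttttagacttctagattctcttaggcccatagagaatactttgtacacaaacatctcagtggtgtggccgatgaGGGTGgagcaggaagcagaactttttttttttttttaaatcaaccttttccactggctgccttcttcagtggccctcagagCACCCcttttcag

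Gimap1, chr6:48738797-48739046, plus strand: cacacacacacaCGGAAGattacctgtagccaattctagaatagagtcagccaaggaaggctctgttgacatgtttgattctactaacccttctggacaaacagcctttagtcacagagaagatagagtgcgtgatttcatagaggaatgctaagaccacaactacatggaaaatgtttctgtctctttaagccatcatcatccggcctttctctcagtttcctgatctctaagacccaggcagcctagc

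All 8 members had an entry in the RefSeq promoter table, Gimap8 with 2 start sites. The windows searched ran from 250 bases before to 50 after the start, on both strands. The cyclic AMP response element TGACGTCA was in 0 of the 8 members, against 1.79% of 32851 promoters of the same length. Its core TGACG, which the full element contains, was also in 0 of 8, against 20.8% of promoters. The RUNX motif TGTGGTT was in 0 of 8, against 5.27%. These absences say only that the letters are not in the windows. The ETS motif CGGAAG was in Gimap1, Gimap6 and Gimap8, against 16.9% of promoters, with 2 matches in Gimap6, at positions -115 and -26 from the start, and 1 in Gimap1. The forkhead motif GTAAACA was in Gimap3 alone of the family, against 3.65% of promoters. CACCC, a core bound by Krüppel-like factors, was in 5 of the 8 members, against 57.5% of promoters, and Gimap3 held 4 matches, 2 of them after the start. The Gimap7 window held no match to any of the 6 motifs.

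All 8 Gimap genes were among the 12186 genes tested, those with at least 1 FPKM in 3 or more libraries. They stood high among them, from the percentile 75.4 for Gimap5 to 98.8 for Gimap4, on the scale of mean log2(FPKM + 1). Every member had a higher mean with the agonist. The 8 genes together summed to 1287 ± 29.0 FPKM with the agonist and 888 ± 24.8 FPKM with vehicle (mean ± SD, n = 3 each). That is 0.288 to 0.317% of the summed FPKM of all reference genes in the agonist libraries and 0.204 to 0.213% in the vehicle libraries. The 2 ranges do not overlap, and the ratio of the mean sums was 1.45.

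**Figure D1:**
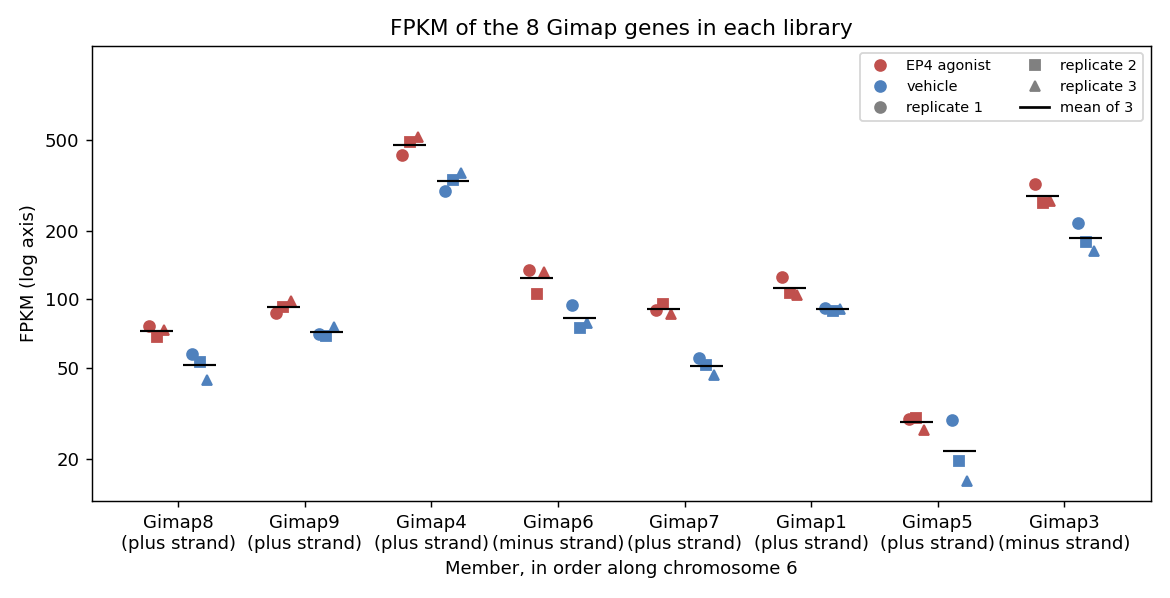
FPKM (log axis) of the 8 Gimap genes in order along chromosome 6, in 3 EP4 agonist libraries (red, left of each pair) and 3 vehicle libraries (blue, right), with replicate number by symbol and the mean of 3 as a bar. Agonist and vehicle points are separate for each gene except Gimap5, where vehicle replicate 1 at 29.4 FPKM lies inside the agonist range.

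Gimap4, the most abundant member, encodes a GTPase of mature T cells linked to the pace of their apoptosis. It had 429, 491 and 518 FPKM in agonist replicates 1, 2 and 3, against 299.7, 337 and 359 FPKM in vehicle replicates 1, 2 and 3. The lowest agonist library was above the highest vehicle library, and within each group replicate 1 was lowest and replicate 3 highest. The log2 fold change on the log2(FPKM + 1) scale was 0.53 with a standard error of 0.11. Standard errors here and below come from the fit without the replicate number as a block. With that block they were 0.0491 for Gimap4 and ran from 0.0457 (Gimap9) to 0.141 (Gimap5) over the members.

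Gimap3, a close relative of Gimap5 that acts with it in T cell survival in mice, came next in abundance. It had 321, 266 and 272 FPKM in agonist replicates 1, 2 and 3, against 217, 178 and 164 FPKM in vehicle replicates 1, 2 and 3. The groups did not overlap, and replicate 1 was highest in each of them. Its log2 fold change of 0.62 (standard error 0.13) was exceeded only by that of Gimap7.

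Gimap7, whose human counterpart can stimulate the GTPase activity of other family members, had the largest difference. It had 89.9, 95.2 and 86.5 FPKM in agonist replicates 1, 2 and 3, against 55.1, 51.7 and 46.5 FPKM in vehicle replicates 1, 2 and 3. The gap between the groups was wider than the spread inside either group. The log2 fold change was 0.82 (standard error 0.09), a ratio of means of 1.77.

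Gimap6, which binds the autophagy protein GABARAPL2 and takes part in autophagy, had 134, 106 and 132 FPKM in agonist replicates 1, 2 and 3, against 94.8, 75.1 and 79.2 FPKM in vehicle replicates 1, 2 and 3. The groups were separate. Its log2 fold change was 0.57 (standard error 0.13). Gimap8, the longest protein of the family with several GTPase domains in tandem, had 76.5, 68.6 and 73.6 FPKM in agonist replicates 1, 2 and 3, against 57.9, 53.1 and 44.1 FPKM in vehicle replicates 1, 2 and 3. Its groups were also separate, and its log2 fold change was 0.50 (standard error 0.11).

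Gimap9 and Gimap1 had the smaller differences. Gimap9 had 87.3, 92.3 and 99.0 FPKM in agonist replicates 1, 2 and 3, against 70.7, 69.4 and 75.9 FPKM in vehicle replicates 1, 2 and 3, a log2 fold change of 0.36 (standard error 0.08). Gimap1, needed for the survival of mature T and B cells, had 126, 107 and 105 FPKM in agonist replicates 1, 2 and 3, against 92.0, 88.7 and 90.9 FPKM in vehicle replicates 1, 2 and 3. Its vehicle libraries lay close together (90.6 ± 1.68 FPKM, mean ± SD, n = 3), and its agonist libraries were spread more widely (112 ± 11.7 FPKM), with replicate 1 highest. The log2 fold change of Gimap1 was 0.30 (standard error 0.09), the smallest of the family.

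Gimap5, the lysosomal member whose loss causes lymphopenia in mice and rats, was the least abundant. It had 30.0, 30.1 and 26.6 FPKM in agonist replicates 1, 2 and 3, against 29.4, 19.5 and 15.98 FPKM in vehicle replicates 1, 2 and 3. It was the member whose groups overlapped, through vehicle replicate 1. Its log2 fold change was 0.45 with the largest standard error of the family, 0.20.

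The order of levels was Gimap4, Gimap3, Gimap6, Gimap1, Gimap9, Gimap7, Gimap8 and Gimap5 by the mean FPKM over 6 libraries. Neighbours in that order were apart in both groups, except for 3 pairs. Gimap6 and Gimap1 overlapped in both groups. Gimap9 and Gimap7 overlapped with the agonist and not with vehicle. Gimap7 and Gimap8 overlapped with vehicle, whereas with the agonist each library had more Gimap7 (86.5 to 95.2 FPKM) than any had Gimap8 (68.6 to 76.5 FPKM).

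Across the family, 7 of 8 members had agonist values above the whole range of their vehicle values. The same held for 7.27% of all tested genes. The median log2 fold change was 0.51 over the members and -0.03 over all genes tested. In the test across all genes (limma, Benjamini-Hochberg adjusted p under 0.05), 1 of 8 members, Gimap7, passed, where 0.345% of all genes passed as higher and 0.0492% as lower. With the replicate number as a block, 7 of 8 passed, all but Gimap5, where 4.09% of all genes passed as higher and 6.41% as lower. Nothing is read from these counts, since the family was chosen on this contrast. Leaving out vehicle replicate 2, vehicle replicate 3 or any agonist library in turn left 0 members past the threshold without the block, and leaving out pair 2 or pair 3 left 0 with it.

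Same-numbered libraries can be set side by side, since their deviations from the group means ran together (processing section). All 8 members were higher in the agonist library in each of the 3 pairs, as were 20.7% of all tested genes. Gimap4 differed by nearly the same amount in each pair, 0.52, 0.54 and 0.53 on the log2(FPKM + 1) scale in pairs 1, 2 and 3. Gimap5 differed by 0.03, 0.61 and 0.70, so pair 1 held almost none of its difference in FPKM. Gimap1 ran the other way, with 0.45, 0.26 and 0.20 in pairs 1, 2 and 3. Gimap8, Gimap6 and Gimap3 had their largest difference in pair 3, at 0.73 each. The coverage of Gimap5, scaled to the same sum per library, did differ in pair 1, at 99.7 with the agonist and 74.4 with vehicle.

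**Figure D2:**
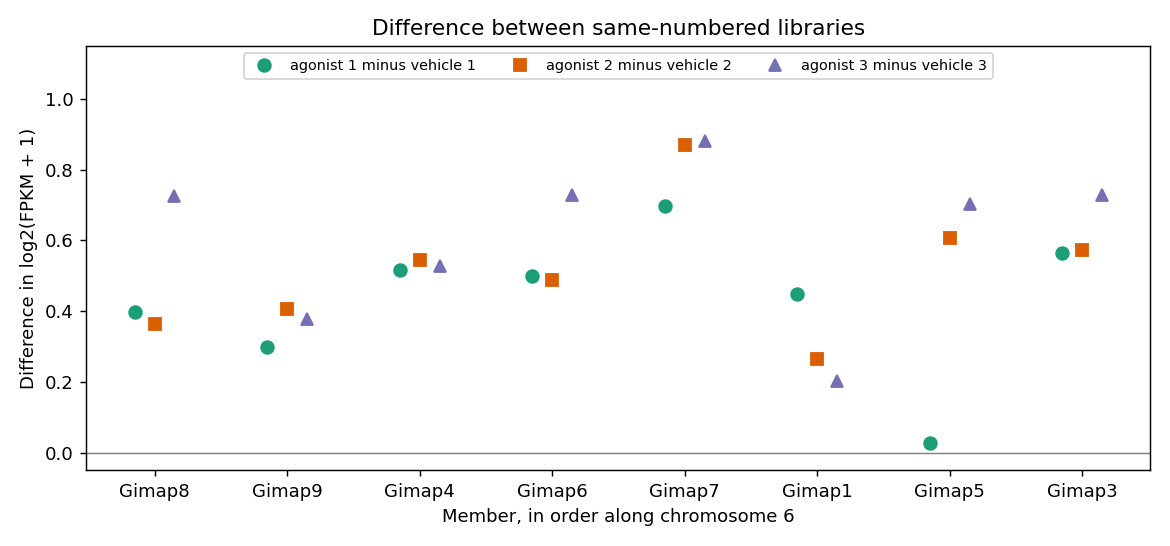
Difference in log2(FPKM + 1) between the agonist and vehicle libraries of the same replicate number (symbols and colours) for each Gimap gene in order along chromosome 6. All 24 points lie above 0, and the points of Gimap4 nearly coincide (0.52 to 0.54), while those of Gimap5 run between 0.03 and 0.70.

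The cluster covers 123.6 kb of chromosome 6, from 48647234 to 48770851 (mm10). The 8 members and the 5 other reference gene models in this span have the same coordinates in GENCODE M21. The members are protein-coding genes of 2986 to 13642 bases, with gaps of 2.40 kb (Gimap1 to Gimap5) to 15.3 kb (Gimap8 to Gimap9). Gimap8 (48647234 to 48660875), Gimap9 (48676129 to 48679114), Gimap4 (48684549 to 48692060), Gimap7 (48718621 to 48724636), Gimap1 (48739054 to 48743795) and Gimap5 (48746197 to 48754210) lie on the plus strand. Gimap6 (48701582 to 48708225) and Gimap3 (48764464 to 48770851) lie on the minus strand.

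The fold changes showed no steady order along the cluster. From the Gimap8 end, the log2 fold changes were 0.50, 0.36, 0.53, 0.57, 0.82, 0.30, 0.45 and 0.62. The largest and the smallest belong to direct neighbours, Gimap7 and Gimap1. The 6 plus strand members summed to 877 ± 35.4 FPKM with the agonist and 619 ± 13.9 FPKM with vehicle, a ratio of 1.42. The 2 minus strand members summed to 410.2 ± 42.6 FPKM with the agonist and 269 ± 37.3 FPKM with vehicle (mean ± SD, n = 3 each), a ratio of 1.52. With 2 genes on the minus strand, no difference between strands can be read.

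**Figure D3:**
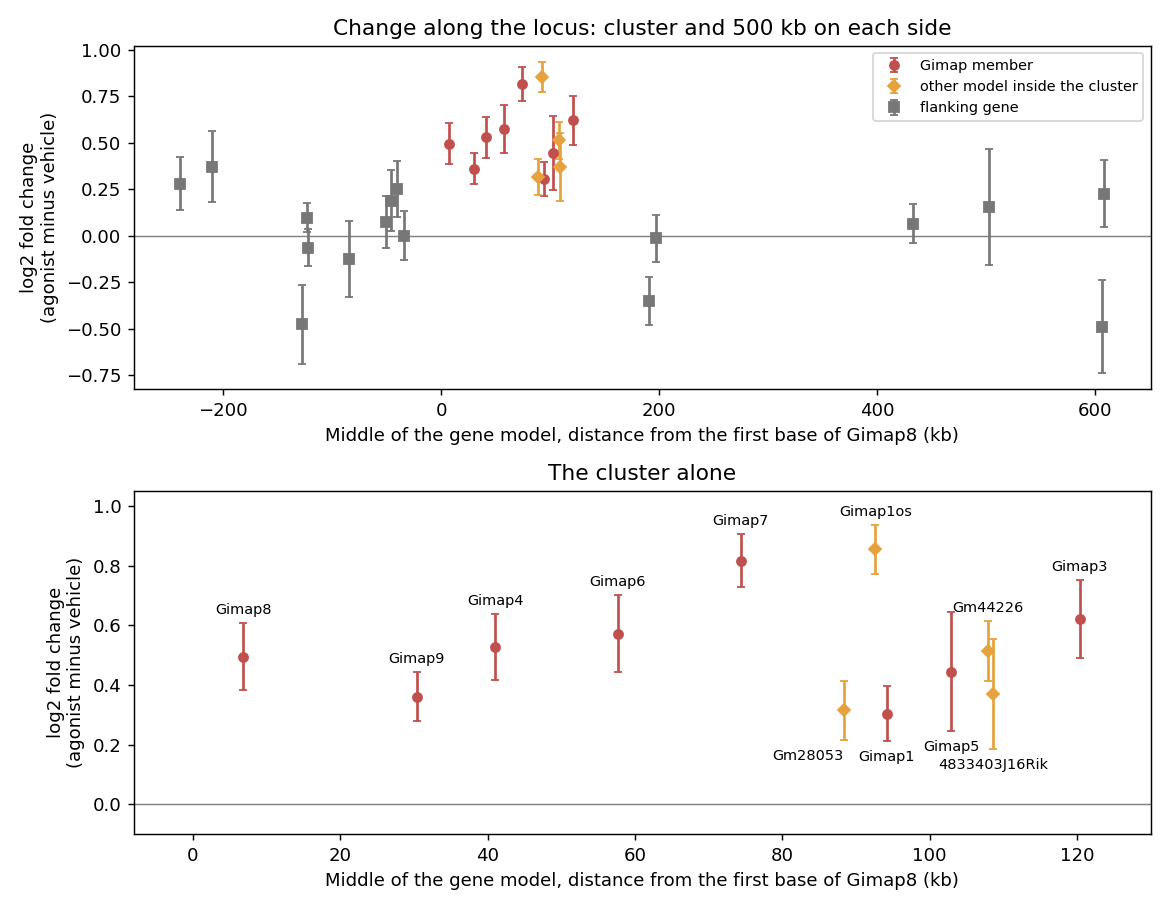
Log2 fold change (agonist minus vehicle, log2(FPKM + 1) scale, with standard error of the fit without the block) against distance in kb from the first base of Gimap8, for Gimap genes (red circles), other models inside the cluster (orange diamonds) and flanking genes within 500 kb (grey squares). The upper plot shows the whole region and the lower plot the cluster, where all 12 tested models lie between 0.30 and 0.86 and flanking genes lie between -0.49 and 0.37. Most flanking genes are low in FPKM, where this scale understates changes.

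4 of the 5 other models in the span were expressed enough to be tested, and their means were higher with the agonist. Gimap1os, a processed transcript on the strand opposite Gimap1, had 17.5, 16.1 and 16.99 FPKM in agonist replicates 1, 2 and 3, against 9.36, 9.07 and 8.22 FPKM in vehicle replicates 1, 2 and 3. Its log2 fold change of 0.86 (standard error 0.08) stands beside 0.30 for Gimap1 on the other strand. The exons of Gimap1os and Gimap1 share 1107 bases, 36.0% of those of Gimap1 and 35.7% of those of Gimap1os. The strand setting of the counting is not given in the sources used here, so reads of Gimap1 and Gimap1os may not have been told apart.

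Gm28053 is a protein-coding read-through model on the plus strand (48718607 to 48752644) that joins exons of Gimap7, Gimap1 and Gimap5. It averaged 22.3 ± 2.34 FPKM with the agonist and 17.7 ± 1.30 FPKM with vehicle (mean ± SD, n = 3 each), a log2 fold change of 0.32. It shares 81 exon bases with Gimap7, 198 with Gimap1 and 153 with Gimap5, which is 3.48, 6.44 and 3.69% of their exon bases. Past the end of Gimap5 lie the lincRNA Gm44226, with 12.5 ± 1.33 FPKM with the agonist and 8.47 ± 0.646 FPKM with vehicle, and the lincRNA 4833403J16Rik, with 7.40 ± 1.97 FPKM with the agonist and 5.43 ± 0.924 FPKM with vehicle. Gm44226 (48754230 to 48755986) is on the minus strand and overlaps 4833403J16Rik (48755338 to 48756368) on the plus strand. Their reads too may not have been told apart. Of the 4 tested models, only 4833403J16Rik had groups that overlapped. Agonist values lay above vehicle values without overlap for 7.27% of all tested genes. In limma's test Gimap1os passed as higher, where 0.345% of all tested genes did. With the block Gm28053 and Gm44226 passed as well, where 4.09% of all tested genes passed as higher. Gimap1os and Gm28053 share exon bases with members chosen on this contrast, so their calls are not separate from the members. With vehicle replicate 1 left out 1 of the 4 models passed, and with any other library left out 0 did, while the blocked fit called 1 without pair 1 and 0 without pair 2 or 3. Over all tested genes, 133 passed without vehicle replicate 1 and 0 to 5 with any other library left out. The blocked fit called 241 of them without pair 1, 0 without pair 2 and 1 without pair 3. The pseudogene Gm44262 was listed at 0 in all 6 libraries.

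The deposited tables also hold rows for loci assembled per library, by a program not given in the sources used here. They are not independent of the reference rows, since the Gimap6 locus had the bounds of the reference model in all 6 libraries and some FPKM values were the same in both. In all 6 libraries a single assembled plus strand locus ran across Gimap7, Gimap1, Gimap5 and the lincRNA 4833403J16Rik. It had 257, 254 and 231 FPKM in agonist replicates 1, 2 and 3, against 191, 171 and 165 FPKM in vehicle replicates 1, 2 and 3. The groups were separate, and the log2 fold change was 0.49, between those of Gimap7 (0.82) and Gimap1 (0.30). The sum of Gimap7, Gimap1, Gimap5 and Gm28053 gave 254 ± 16.2 FPKM with the agonist and 181 ± 13.2 FPKM with vehicle (n = 3 each). The assembled loci over Gimap8, Gimap9, Gimap4, Gimap6 and Gimap3 had log2 fold changes of 0.45, 0.32, 0.51, 0.57 and 0.64, each close to its reference model.

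Coverage was higher with the agonist for all 8 members and, unlike FPKM, separated the groups of Gimap5. Scaled to the same summed coverage per library, it separated the groups for 8 of 8 members, against 6.82% of tested genes that were higher and separate. Gimap5 had a scaled coverage of 99.7, 86.8 and 88.3 in agonist replicates 1, 2 and 3, against 74.4, 57.9 and 56.1 in vehicle replicates 1, 2 and 3. The ratio of coverage to FPKM, relative to the constant that many genes of a library share, was 0.522 for Gimap5 in vehicle replicate 1, and between 0.612 and 0.715 in the other 5 libraries. Vehicle replicate 1, whose FPKM of Gimap5 lay inside the agonist range, is thus also the library with the lowest such ratio, and the part of this in the overlap was not tested. For Gimap7 this ratio held between 0.543 and 0.547 in all 6 libraries, and for Gimap4 between 0.955 and 0.967. Gimap5 was not the only member whose ratio varied. For Gimap6 it ran from 0.558 to 0.709, and the log2 fold change of Gimap6 was 0.57 from FPKM and 0.70 from coverage. For Gimap1 the ratio was 0.528 in vehicle replicate 1 and between 0.477 and 0.490 in the other 5 libraries. The log2 fold changes from coverage ran from 0.27 for Gimap1 to 0.81 for Gimap7.

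Near-identical sequence can also divide reads between relatives. Of the 50-base words in the GENCODE M21 transcripts of Gimap3, 7.52% also occur in another member, and for Gimap5 the share is 4.53%. The words they share are with each other, so the FPKM of these relatives is uncertain to the extent that the authors' counting could split such reads. The other 6 members share no 50-base word with any member. Gimap1 has 35.5% of its words in transcripts of other genes, mostly in Gimap1os, while Gimap4, Gimap8 and Gimap9 have none.

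The genes on either side of the cluster were not used to choose the family, and could be tested. Within 500 kb, 16 of 47 flanking reference models were expressed enough. Of these, 0 passed limma's test without or with the block, where 0.394 and 10.5% of all tested genes passed in either direction, while 1 and 3 of the 16 had an unadjusted p under 0.05, where 14% and 29.8% of all tested genes had one. Their median log2 fold change was 0.07, in a range from -0.49 to 0.37. Their means over the 6 libraries were 1.67 to 28.8 FPKM, against 25.3 to 406 FPKM for the members. The log2(FPKM + 1) scale understates changes of low genes, so the 2 ranges of change are not on equal terms. The nearest on the Gimap8 side was Zfp775, a zinc finger gene 24.0 kb away, with 2.09 ± 0.237 FPKM with the agonist and 2.09 ± 0.340 FPKM with vehicle (mean ± SD, n = 3 each; limma, adjusted p = 0.999). Next on that side came the models RP24-124B23.14 and RP24-124B23.17, with log2 fold changes of 0.25 and 0.19 (limma, adjusted p = 0.496 and 0.654).

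On the Gimap3 side the nearest were Tmem176b and Tmem176a, paired membrane protein genes 63.0 and 70.1 kb away. Tmem176b had 3.21, 2.57 and 3.31 FPKM in agonist replicates 1, 2 and 3, against 3.91, 4.81 and 3.71 FPKM in vehicle replicates 1, 2 and 3. Its agonist values lay below its vehicle values without overlap, as did those of 12.1% of all tested genes, the direction opposite to the Gimap genes, and it did not pass (log2 fold change -0.35, limma adjusted p = 0.298, and 0.161 with the block). Tmem176a had 2.52 ± 0.363 FPKM with the agonist and 2.55 ± 0.345 FPKM with vehicle (adjusted p = 0.976). Malsu1, a mitochondrial ribosome assembly gene 303 kb away, had a log2 fold change of 0.07 (adjusted p = 0.828). Tra2a and Zfp862-ps, named after their values were seen, had the lowest log2 fold changes of the flanks, -0.49 and -0.48, with overlapping groups.

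The gene lists here and below were chosen with earlier results of these data known, so their counts and p-values are descriptive. A list of 24 genes of T cell quiescence, a state in which Gimap transcripts are also known to be high, was tested for comparison. Of these, 0 passed limma's test, 5 had an unadjusted p under 0.05 (14% of all tested genes had one), and the median log2 fold change was 0.08, against -0.03 over all tested genes. Il7r, Btg1, Btg2, Tob1 and Cdkn1b, 5 genes, rose in the blocked fit, and 2 fell, where 4.09% of all tested genes rose and 6.41% fell. In that fit 13 of the 24 had an unadjusted p under 0.05, against 29.8% of all tested genes. Il7r, the receptor chain for the survival cytokine IL-7, averaged 14.3 ± 0.770 FPKM with the agonist and 9.56 ± 0.723 FPKM with vehicle (limma, adjusted p = 0.0630, and 0.0198 with the block). Btg1, an antiproliferative gene, averaged 64.5 ± 16.5 FPKM with the agonist and 45.2 ± 19.9 FPKM with vehicle (limma, adjusted p = 0.453, and 0.0352 with the block). The pair that fell was Tcf7, a transcription factor of naive and memory T cells, and Slfn2, a quiescence gene, with log2 fold changes of -0.25 and -0.26. Foxp1 had the lowest log2 fold change of the list, -0.54, with groups that overlapped. It did not pass (limma, adjusted p = 0.294, and 0.141 with the block). Klf2 and S1pr1, a factor of naive T cells and its egress receptor target, had log2 fold changes of -0.27 and 0.01 and did not pass (limma, adjusted p = 0.582 and 0.992). Leaving out pair 1, 2 or 3 from the blocked fit left 1, 0 and 0 quiescence genes past the threshold.

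Among 15 T cell transcription factors, 0 passed limma's test, 5 had an unadjusted p under 0.05 (14% of all tested genes), and the median log2 fold change was 0.05. With the block 3 rose and 0 fell (4.09 and 6.41% of all tested genes), and 8 of the 15 had an unadjusted p under 0.05 (29.8% of all). Gata3 averaged 57.0 ± 8.32 FPKM with the agonist and 41.9 ± 3.50 FPKM with vehicle (log2 fold change 0.43, limma, adjusted p = 0.198, and 0.0219 with the block). Stat5b, a transducer of IL-2 signals, averaged 57.2 ± 4.87 FPKM with the agonist and 43.9 ± 5.39 FPKM with vehicle (limma, adjusted p = 0.215, and 0.0246 with the block). Runx3, of the RUNX family, averaged 38.5 ± 3.60 FPKM with the agonist and 29.95 ± 1.68 FPKM with vehicle (limma, adjusted p = 0.176, and 0.0227 with the block). Ets1, founder of the ETS family, averaged 208 ± 22.2 FPKM with the agonist and 200.4 ± 17.8 FPKM with vehicle and did not pass (adjusted p = 0.873). Without pair 1, 2 or 3 the blocked fit called 0 of these factors each time, and 241, 0 and 1 of all tested genes.

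The third list held genes of lymphocyte survival and of partners reported for GIMAP proteins. Of 13 tested, 0 passed limma's test, 1 had an unadjusted p under 0.05 (14% of all tested genes), and the median log2 fold change was 0.12. In the blocked fit 3 rose and 1 fell (4.09 and 6.41% of all tested genes), and 8 of the 13 had an unadjusted p under 0.05 (29.8% of all). Bax, a pro-apoptotic gene, fell with the block, at 99.3 ± 6.37 FPKM with the agonist and 128 ± 9.16 FPKM with vehicle (limma, adjusted p = 0.164, and 0.0209 with the block). The risers were Bcl2l11, also pro-apoptotic, with a log2 fold change of 0.51, the anti-apoptotic gene Mcl1 with 0.28, and Gabarapl1, of the autophagy conjugation system, with 0.23. Their adjusted p in limma was 0.0372, 0.0325 and 0.0483 with the block, and 0.394, 0.449 and 0.523 without it. Gabarapl2, the partner of Gimap6, averaged 29.1 ± 2.15 FPKM with the agonist and 27.0 ± 3.69 FPKM with vehicle and did not pass (adjusted p = 0.705). Bcl2 averaged 50.9 ± 4.33 FPKM with the agonist and 45.5 ± 2.81 FPKM with vehicle (adjusted p = 0.488). The blocked fit called 1 gene of this list without pair 1, and 0 without pair 2 or 3. Over all tested genes it called 241, 0 and 1 without pairs 1, 2 and 3.

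**Figure D4:**
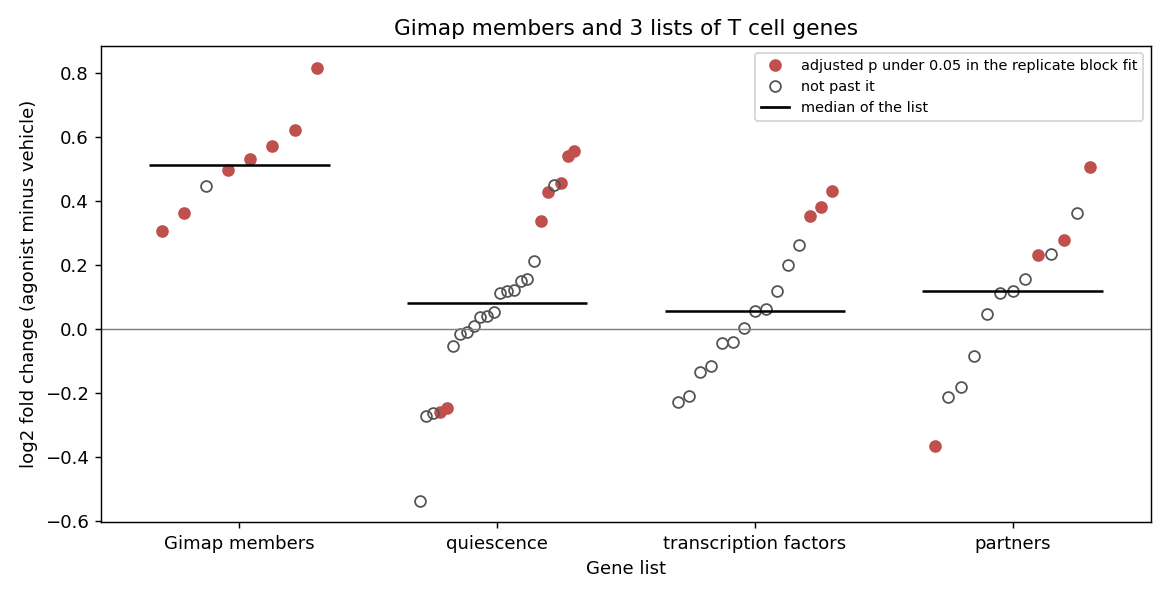
Log2 fold change (agonist minus vehicle) of the 8 Gimap genes and of the tested genes in the quiescence, transcription factor and partner lists, each point a gene, filled where limma's adjusted p was under 0.05 with the replicate block, and bars at the medians. Gimap genes lie between 0.30 and 0.82, and the medians of the 3 lists lie between 0.05 and 0.12.

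Over the 6 libraries, the genes whose profile was most like that of the family were Dusp4, Pja1, Tob2, Fosl2 and Trf. Likeness was the Pearson correlation with the mean of the members' standardized log2(FPKM + 1), and it was between 0.995 and 0.998 for these 5. With 3 libraries in each of 2 separate groups it mostly measures how cleanly the groups part, and 152 of 12178 other genes had a value of 0.95 or more. Dusp4, a MAP kinase phosphatase gene, had 145, 134 and 143 FPKM in agonist replicates 1, 2 and 3, against 75.6, 63.7 and 57.8 FPKM in vehicle replicates 1, 2 and 3. Tob2, an antiproliferative gene, had 49.2, 46.9 and 49.7 FPKM in agonist replicates 1, 2 and 3, against 35.7, 33.0 and 30.9 FPKM in vehicle replicates 1, 2 and 3. Of these 5 genes, Tob2 had a log2 fold change (0.54) inside the range of the Gimap genes, and the others had larger ones, from 1.10 for Dusp4 to 1.91 for Fosl2.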

How the data were processed

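The authors deposited 1 table per library on mm10, with FPKM, coverage and TPM per feature, per the file headers. Per the submitters' processing notes the tools included HISAT2 and Trim Galore, no version being stated. What program computed the abundances, on what annotation and with which strand setting, is not given in the sources used here. The deposited coverage is not scaled for depth, and the deposited TPM, treated as a score because its column sums to 1.90 to 1.93 times the usual total, was not used. Fragment counts are unknown, so no counting error is given.

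FPKM was analysed as log2(FPKM + 1), which understates changes of low genes, for the 12186 of 47643 reference genes that reached 1 FPKM in 3 libraries or more. Rows of an identifier listed more than once were summed. limma 3.58.1 (intensity trend, robust variances, statmod 1.5.0, R 4.3.3), with Benjamini-Hochberg adjustment over these genes and a threshold of 0.05, was fitted on both groups together without a block. This fit was tested on simulated data with changes larger than those of the members, and the blocked fit was not simulated. Other steps used pandas 2.3.3, numpy 2.4.6 and matplotlib 3.10.9 under Python 3.11.15. "Rose", "fell" and "passed" refer to the threshold.

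The members and lists were chosen with earlier results of these data known. Genes named are the members, models inside the cluster with a mean of at least 1 FPKM, the 3 nearest tested flanking genes on each side, list genes past the threshold or else with the largest fold changes, some further list genes chosen after their values were seen, and the 5 most alike in profile. Groups and replicate numbers came from titles. Deviations of same-numbered libraries from their group means correlated at 0.512, 0.404 and 0.321 over the tested genes (limit 0.1). On this basis same-numbered libraries were compared as pairs and the number was fitted as a block, although the labels do not say what it stands for. The main fit, with its calls and standard errors, leaves this pairing out. The deviations of other pairs correlated at -0.353 to 0.002. Where same-numbered pairs are positive, centring on group means pulls the other pairs below 0 on average, so their low values add no support. Blocked values stand beside results whose call they change. Alternatives covered the pseudocount, low-value filter, coverage, scaling, block, variance model and each library left out.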

Additional observations from a re-analysis of the deposited data

How the results depend on the processing

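All 8 members had a positive log2 fold change under each of the 19 alternatives, 3 kinds of them (the block with quantile normalization, with coverage and without a pair) chosen after seeing the data, and none moved by more than its spread between replicates. Their median, 0.51, was 0.47 to 0.63 with 1 library left out and, with the block, 0.44 to 0.58 with 1 pair left out. The number of members past the threshold was 1, and it was 0 without a filter, 2 with coverage, 7 with the replicate block, 7 with the block and quantile normalization, and 8 with the block and coverage. It was 0 to 2 with 1 library left out (2 without vehicle replicate 1, otherwise 0), and with the block 4 without pair 1 and 0 without pair 2 or 3. For the other models of the span the count of 1 became 0 without a filter, 3 with the block, 3 with the block and quantile normalization and 4 with the block and coverage. With 1 library or pair left out it was 0 to 1. No alternative called a flanking gene.

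Over all genes the count of 48 was 2 without a filter, 96 with coverage, 75 with upper quartile scaling, 1279 with the block (498 higher, 781 lower), 997 with the block and quantile normalization (519 higher, 478 lower) and 2009 with the block and coverage. It was 0 to 133 with 1 library left out, the highest without vehicle replicate 1, and with the block 0 to 241 with 1 pair left out. Where it was 0, on leaving out replicate 2 or 3 of vehicle, replicate 2 of the agonist or, with the block, pair 2, 1033, 1115, 1606 and 2557 genes had an unadjusted p under 0.05. Quiescence genes past the threshold numbered 0, and 1 at an FPKM of at least 5, with coverage, with quantile normalization or with upper quartile scaling, 7 with the block, 5 with the block and quantile normalization and 10 with the block and coverage. With 1 library or pair left out they numbered 0 to 1. Transcription factors numbered 0, and 3, 4 and 6 in the blocked fits with FPKM, quantile normalization and coverage. Partner genes numbered 0, and 4, 4 and 3 in those fits, and 0 to 1 with a pair left out. The cause of these moves was not tested. Fragment counts are unknown, and 3 libraries a group set the precision.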
